A study of Mus musculus with 2 samples.

Results

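Fibrillar collagens are the collagens that assemble into the banded fibrils of scar and connective tissue. The genes described here were chosen by name, as chains of collagen types I, II, III, V and XI: *Col1a1*, *Col1a2*, *Col3a1*, *Col5a1*, *Col5a2*, *Col5a3*, *Col11a1* and *Col2a1*. All 8 were found among the 24532 genes of the count table, and all 8 had TPM values, which are scaled for gene length and library size. They were measured by mRNA sequencing in cardiac myofibroblasts of C57BL/6 mice, isolated 3 days after myocardial infarction (MI) as the attached, CD45-negative cells of the infarcted heart and grown on plastic. The cells were transfected with 12.5 nM of a control siRNA (siCtrl) or of an siRNA against *Vgll3*, a transcriptional cofactor gene (si*Vgll3*), and RNA was taken 72 h later. Each condition has 1 library, so the differences below were not checked by replicates and carry no p-value. An effect of the siRNA and any other difference between the 2 cultures cannot be told apart. In bulk RNA, fewer cells making a collagen and less collagen mRNA per cell cannot be told apart either.

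Each fibrillar collagen molecule is a rope of 3 chains wound around each other, and every chain carries a long run of Gly-X-Y repeats in which glycine returns at every repeat. Type I collagen, usually built from a pair of α1 chains (*Col1a1*) and a single α2 chain (*Col1a2*), gives scar its tensile strength, and type III (*Col3a1*) forms finer, more compliant fibrils. Types V and XI are minor collagens that sit at the core of fibrils, start their assembly and limit their diameter. After MI these proteins replace lost heart muscle with a scar, and their excess stiffens the heart.

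The labelled cell type was checked against its markers. All 12 fibroblast and myofibroblast markers had reads, and their summed level was 12537 TPM with siCtrl and 14594 TPM with si*Vgll3*. *Acta2*, which encodes the α-smooth muscle actin of myofibroblasts, was at 3296 TPM and 3866 TPM, and *Pdgfra*, a fibroblast receptor, at 184 TPM and 190 TPM. By the rule on M used below, 4 of the 12 were lower and 2 higher: *Postn* (periostin, M −1.22), *Lum* (−1.23), *Fap* (−1.32) and *Tcf21* (−0.58) were lower, and *Thy1* (0.72) and *Tagln* (0.52) higher. The rise of the sum came mostly from *Vim*, at 5343 TPM and 6541 TPM, *Tagln*, at 1864 TPM and 2680 TPM, and *Acta2*. Of the leukocyte markers, *Ptprc* (CD45), *Adgre1*, *Itgam*, *Cd3e* and *Ly6g* had 0 reads in both libraries. The list summed to 15.0 TPM with siCtrl and 8.46 TPM with si*Vgll3*. The fall of that sum came from *Lyz2*, at 10.9 TPM and 3.13 TPM. By the same rule *Csf1r*, at 1.29 TPM and 1.83 TPM, and *Cd14*, at 1.53 TPM and 2.35 TPM, were higher. *Cd68* was at 1.21 TPM and 1.14 TPM, and *S100a8* had 0 and 2 reads. Of 9 cardiomyocyte markers, *Myh6*, *Myh7*, *Actc1*, *Ryr2*, *Nppa* and *Pln* had 0 reads in both libraries. The cardiomyocyte sum of 60.0 TPM with siCtrl and 10.4 TPM with si*Vgll3* was all *Tnnt2*. Endothelial markers summed to 28.1 TPM and 23.4 TPM, a fall that came from *Tek*, at 19.5 TPM and 13.4 TPM. Of the 4 with a mean level above 1 TPM, *Tek* was lower and 0 were higher. The others, *Pecam1*, *Cdh5* and *Emcn*, had M of 0.47, 0.50 and −0.02. Epicardial markers summed to 47.0 TPM and 40.2 TPM, with 2 of 5 lower (*Upk3b*, 31.6 TPM and 9.89 TPM, and *Wt1*, 7.61 TPM and 4.78 TPM) and 2 higher (*Krt19*, 2.86 TPM and 16.8 TPM, and *Msln*, 1.58 TPM and 5.93 TPM). Pericyte and smooth muscle markers summed to 294 TPM and 245 TPM, where *Pdgfrb* was at 227 TPM and 136 TPM and *Cnn1* at 44.0 TPM and 96.6 TPM. Among the 4 with a mean level above 1 TPM, 3 were lower, *Pdgfrb*, *Notch3* (M −0.82) and *Des* (−1.21), and *Cnn1* was higher. The part of these shifts in the collagen values was not tested. *Vgll3* itself was at 202 TPM with siCtrl and 84.0 TPM with si*Vgll3*, so 41.6% of its siCtrl level was left.

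Collagen mRNAs are well known targets of miR-29, a microRNA family that pairs with messages through its seed, bases 2 to 8 from its 5′ end. The mature sequences of the family are shown because the study asks about miR-29b and collagen, with the shared seed in capitals, as RefSeq gives them for GRCm38.p6. These mRNA libraries do not measure mature microRNAs.
miR-29a-3p: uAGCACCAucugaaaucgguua
miR-29b-3p: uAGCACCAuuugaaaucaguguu
miR-29c-3p: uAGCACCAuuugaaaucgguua
All 3 share the seed AGCACCA and differ only outside it. miR-29b-3p comes from genes at chr6:31063025-31063047 on the minus strand and chr1:195037091-195037113 on the plus strand, next to miR-29a and miR-29c respectively.

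The complement of the seed on an mRNA reads TGGTGCT. This 7-base string was searched on the sense strand of the annotated 3′ UTR (the untranslated stretch after the stop codon) of every gene. Of a gene's GENCODE vM21 transcripts, those matching a RefSeq transcript that the count table lists for it came first. Among these, or among all where none matched, the transcript with the longest coding sequence was used. It was present in 7 of the 8 fibrillar collagens, with 13 matches in all. For comparison, 14.3% of the 11248 genes with a 3′ UTR and a mean level above 1 TPM held at least 1 match, and 2.13% held 2 or more. *Col5a1* had 4 matches, *Col5a3* had 3, *Col11a1* had 2, and *Col1a1*, *Col3a1*, *Col5a2* and *Col2a1* had 1 each. *Col1a2* had 0 matches in its 882 bases of 3′ UTR. The stretches below show 1 match for each chain that has any, and both for *Col11a1*, with the 7 matching bases in capitals.
Col1a1: gtgggaaggaatttcTGGTGCTa
Col3a1: ttcaaaatgtctcaaTGGTGCTa
Col5a1: tacacttgtctcttgTGGTGCTa
Col5a2: cttttcttttaatgaTGGTGCTa
Col5a3: ctccaccaggcctttTGGTGCTa
Col2a1: gcgtgtcctacacaaTGGTGCTa
Col11a1, match 1: ctatttggatttcgtTGGTGCTg
Col11a1, match 2: tattcatttaaaaaaTGGTGCTc
In the order shown, they lie in GRCm38 at chr11:94952523-94952545 (plus strand), chr1:45348967-45348989 (plus), chr2:28038019-28038041 (plus), chr1:45374965-45374987 (minus), chr9:20770503-20770525 (minus), chr15:97975681-97975703 (minus), chr3:114219068-114219090 (plus) and chr3:114219118-114219140 (plus). In 6 of the chains at least 1 match was followed by an A, the longer 8-base form that 3.09% of genes held, and *Col11a1* had only the shorter form. With 6 bases (GGTGCT) required, all 8 chains had a match, as did 31.4% of genes. These lengths were added after the 7-base matches were seen. A match is a string of letters and not a measured binding site.

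**Figure D1:**
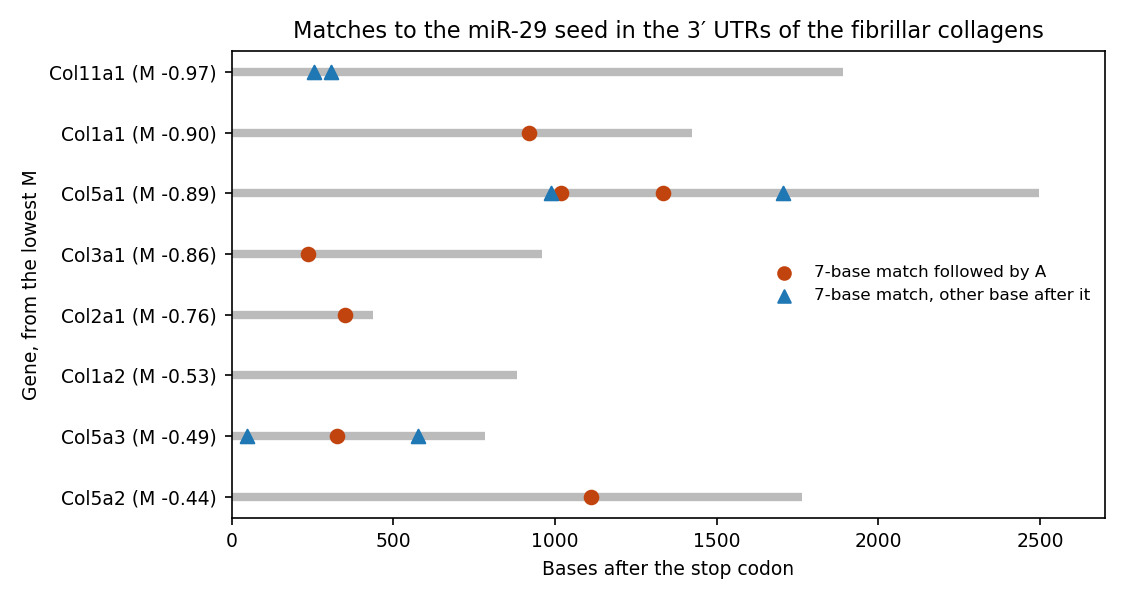
Position of each 7-base match to the miR-29 seed in the 3′ UTR of the fibrillar collagens. The x axis gives bases after the stop codon, grey bars run over the annotated 3′ UTR, circles mark matches followed by an A and triangles the other matches, and genes are ordered by M, log2 of the si*Vgll3* TPM over the siCtrl TPM. *Col5a1* carries 4 matches and *Col1a2* none.

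All 8 fibrillar collagens were lower with si*Vgll3* than with siCtrl. M is log2 of the si*Vgll3* TPM over the siCtrl TPM and A is log2 of the mean TPM of both libraries, and a gene counted as lower with M below −0.5 and A above 0. By this rule 6 of the 8 (75.0%) were lower and 0 were higher, against 11.4% lower and 5.73% higher of all 11754 genes with A above 0. The median M of the 8 was −0.81, beside −0.05 for all genes, and 4.96% of all genes had an M at or below −0.81. All 8 had A above 0, so none was lost to that filter. Intervals in square brackets are 95% Clopper-Pearson intervals of the read count ratio moved onto the TPM ratio, and they cover counting error between these libraries only. The interval lay wholly below −0.5 for all 6 of the lower chains. It held −0.5 for *Col5a3* and lay above it for *Col5a2*. The call of *Col1a2* depended on the scaling: with CPM, TMM, DESeq2's size factors or centred M its M was −0.48 to −0.49, which left 5 lower chains. Of all genes, 9.95% to 10.2% were lower with these scalings.

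The 8 chains summed to 14136 TPM (1.42% of all TPM) with siCtrl and to 8550 TPM (0.856%) with si*Vgll3*. The sum had an M of −0.73, with 60.5% of the siCtrl level left. In raw reads, the chains took 3.70% [3.69, 3.70] of 140815237 reads with siCtrl and 2.31% [2.30, 2.31] of 125789276 with si*Vgll3*. Type I chains made up 67.2% of the summed TPM with siCtrl and 68.0% with si*Vgll3*. Types I and III together made up 88.3% and 87.2%, and type V 10.5% and 11.8%. The make-up of the fibrillar collagen mRNA by type thus moved by little while its amount was lower.

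**Figure D2:**
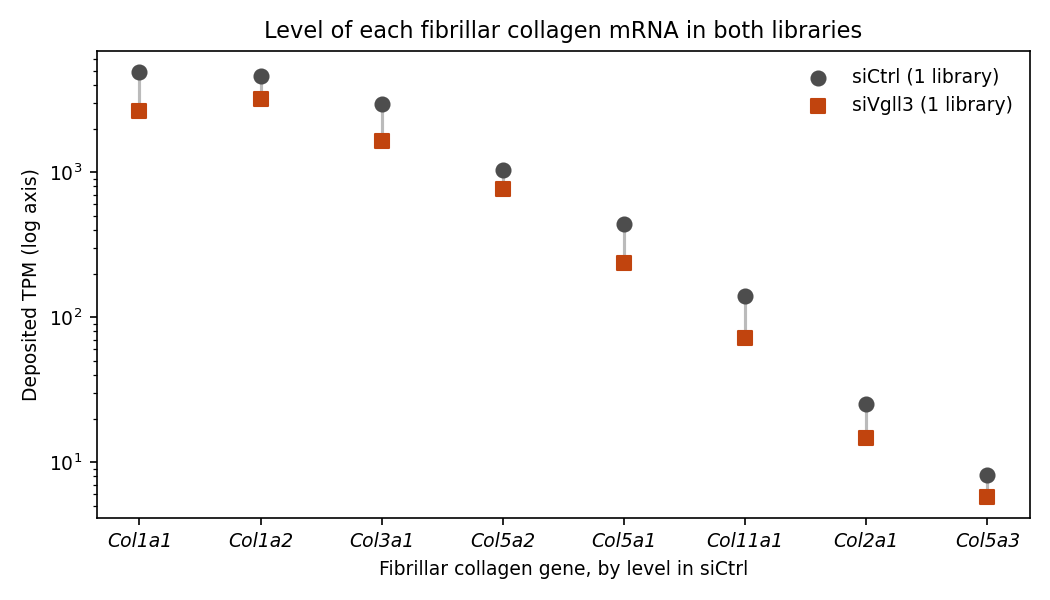
TPM of each fibrillar collagen in the siCtrl (circles) and si*Vgll3* (squares) libraries on a log axis, with 1 library per condition and genes ordered by their siCtrl level. Every square lies below its circle, and *Col1a1* and *Col1a2* exchange places as the highest chain.

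The chains of types I and III were among the most abundant mRNAs of these cells. *Col1a1*, the α1 chain of type I, was at 4918 TPM with siCtrl and 2631 TPM with si*Vgll3*, and passed from rank 12 to rank 45 of all genes by TPM. *Col1a2*, the α2 chain, was at 4585 TPM and 3179 TPM, and passed from rank 15 to rank 28. The order of the type I chains was therefore reversed. The ratio of *Col1a1* to *Col1a2* TPM was 1.07 [1.07, 1.08] with siCtrl and 0.828 [0.825, 0.830] with si*Vgll3*, so *Col1a1* was the lower of the type I chains with si*Vgll3* only. M was −0.90 [−0.91, −0.90] for *Col1a1* and −0.53 [−0.53, −0.52] for *Col1a2*, a difference of −0.37. A factor that scales a whole library cancels in this difference. Its equal value in CPM, which scales the reads by library total alone, is therefore no check.

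*Col3a1*, whose product forms type III collagen alone as a trimer of identical chains, had 1058590 reads with siCtrl and 540628 with si*Vgll3*. Its level was 2980 TPM with siCtrl and 1645 TPM with si*Vgll3*, its rank 31 and 99, and its M −0.86 [−0.86, −0.85]. The ratio of *Col3a1* to *Col1a1* TPM was 0.606 [0.604, 0.607] with siCtrl and 0.625 [0.623, 0.627] with si*Vgll3*. *Col1a1* and *Col3a1* thus kept close to the same proportion to each other, left at 53.5% and 55.2% of their siCtrl levels. *Col1a2*, the other type I chain, was left at 69.3%, so its proportion to *Col3a1* was not kept.

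Among the most abundant genes, low M was uncommon outside the collagens. With A above 11, which was chosen after the values were seen, there were 72 genes, of which 3 (4.17%) were lower and 7 were higher, with a median M of 0.04. The 3 lower genes were *Col1a1*, *Col3a1* and *Col1a2*. With A above 10 there were 152 genes and 6 lower ones, the others being *Ctsd*, a lysosomal protease, with an M of −0.77, *Serpinf1*, a secreted serpin, with −0.65, and *Cst3*, a cysteine protease inhibitor, with −0.63. With A above 8 there were 648 genes, 32 of them (4.94%) lower, and 5 of the 648 were fibrillar collagens. The genes nearest to *Col1a2*, the chain of the largest mean TPM, by distance in log2 TPM over the 2 libraries were *Rpl41* (distance 0.206), *Col1a1* (0.291), *Rpl23a* (0.354), *Bgn* (0.393) and *Rpl12* (0.409). The ribosomal protein genes *Rpl41*, *Rpl23a* and *Rpl12* had M of −0.24, −0.06 and 0.04.

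**Figure D3:**
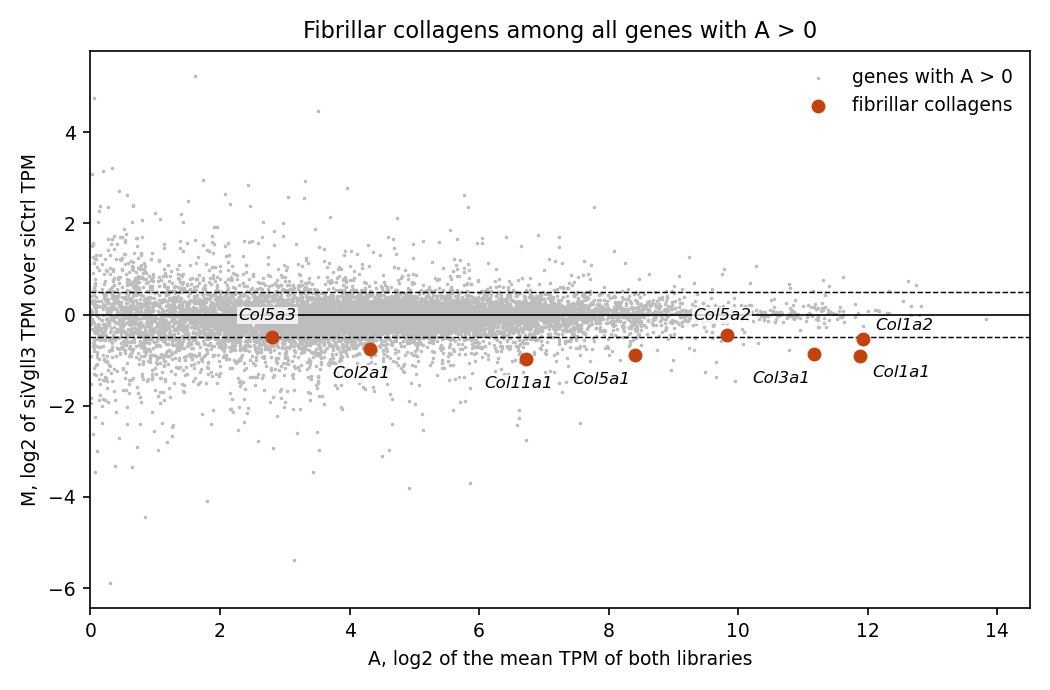
M against A for all 11754 genes with A above 0 (grey) and the 8 fibrillar collagens (orange, labelled), with dashed lines at M of −0.5 and 0.5. The 3 most abundant chains lie at A above 11, where most genes lie near M of 0.

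Type V collagen was split between its chains. *Col5a1* encodes the α1(V) chain, which most type V molecules contain as a pair, and had 235653 reads with siCtrl and 117538 with si*Vgll3*. Its level was 439 TPM with siCtrl and 237 TPM with si*Vgll3*, and M was −0.89 [−0.90, −0.88]. *Col5a2*, the α2(V) chain, had 439475 and 299633 reads, or 1041 TPM and 767 TPM, with an M of −0.44 [−0.45, −0.43]. The ratio of *Col5a2* to *Col5a1* TPM was accordingly 2.37 [2.36, 2.38] with siCtrl and 3.24 [3.22, 3.26] with si*Vgll3*. *Col5a3*, the α3(V) chain of a rarer type V form, was the lowest of the 8 in level. It had 3175 reads with siCtrl and 2097 with si*Vgll3*, or 8.13 TPM and 5.80 TPM, with an M of −0.49 [−0.57, −0.41]. Its level per *Col5a1* TPM was 0.0185 [0.0179, 0.0192] with siCtrl and 0.0245 [0.0235, 0.0256] with si*Vgll3*.

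*Col11a1*, the α1(XI) chain, which in non-cartilage tissue can join type V chains in mixed molecules, had the lowest M of the 8, −0.97 [−0.99, −0.95]. It had 68956 reads with siCtrl and 32551 with si*Vgll3*, or 140 TPM and 71.5 TPM, so 51.0% of the siCtrl level was left. Its ratio to *Col5a1* TPM was 0.319 [0.316, 0.322] with siCtrl and 0.302 [0.298, 0.306] with si*Vgll3*. *Col2a1*, the main collagen of cartilage, whose product also serves as the α3 chain of type XI, was measured in these heart cells at 25.1 TPM with siCtrl and 14.8 TPM with si*Vgll3*. Its 8174 and 4482 reads gave an M of −0.76 [−0.81, −0.71]. The 8 cartilage cell markers examined beside it summed to 104 TPM and 99.96 TPM, nearly all of it *Sox9*, at 97.3 TPM and 95.2 TPM. *Acan*, the aggrecan gene, was at 0.518 TPM and 0.239 TPM. Among the 4 markers with a mean level above 1 TPM, *Matn3* was lower, at 1.71 TPM and 0.506 TPM, and 0 were higher.

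Ordered by M, the chains fell into a lower and a higher set with *Col2a1* between them. In the lower set, *Col11a1*, *Col1a1*, *Col5a1* and *Col3a1*, 51.0% to 55.2% of the siCtrl level was left. In the higher set, *Col1a2*, *Col5a3* and *Col5a2*, 69.3% to 73.7% was left, and *Col2a1* lay at 59.0%. The counting intervals of *Col1a1* and *Col5a1* overlapped, and that of *Col5a3* held both *Col1a2* and *Col5a2*, while those of *Col11a1*, *Col3a1* and *Col2a1* met no neighbour. The log2 change of a TPM ratio is the difference in M between its 2 genes. Ratios within a set therefore moved less than ratios between the sets by construction. *Col5a1* to *Col1a1* was 0.0893 [0.0889, 0.0897] and 0.0900 [0.0895, 0.0905], and *Col5a2* to *Col1a2* was 0.227 [0.226, 0.228] and 0.241 [0.240, 0.242], whereas *Col3a1* to *Col5a2* went from 2.86 [2.85, 2.87] to 2.15 [2.14, 2.15]. These sets were drawn from the values and are a description only.

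**Figure D4:**
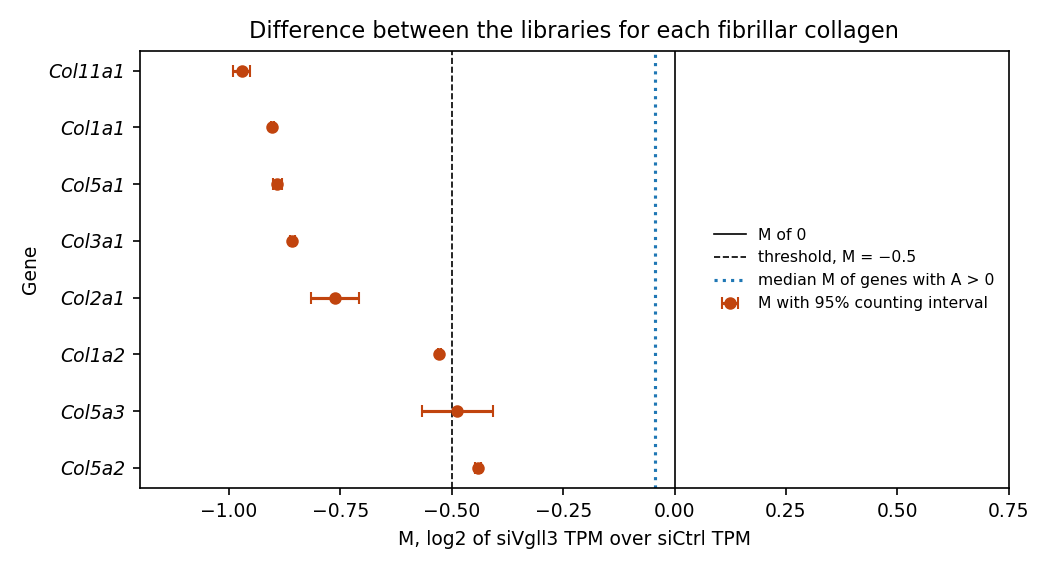
M of each fibrillar collagen with its 95% counting interval, ordered from the lowest, with the threshold of −0.5 (dashed), the median of all genes (dotted) and 0 (solid). The interval of *Col5a3* holds the threshold, that of *Col5a2* lies above it and the other 6 lie below it.

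The number of miR-29 seed matches did not order the chains. *Col5a1* with 4 matches and *Col11a1* with 2 had M of −0.89 and −0.97, among the lowest of the 8. *Col5a3* with 3 matches and *Col1a2* with 0 had M of −0.49 and −0.53. *Col1a1*, *Col3a1*, *Col2a1* and *Col5a2* with 1 match each ranged from −0.90 to −0.44. Whether miR-29 had a part in these values was not tested. Over all genes with a 3′ UTR, the median M was −0.04 for the 9636 genes with 0 matches, −0.07 for the 1372 with 1, −0.17 for the 193 with 2 and −0.23 for the 47 with 3 or more. These medians describe the libraries, since genes differ in 3′ UTR length and composition.

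The chains are encoded across the genome by long genes of many exons. *Col5a1* (NCBI gene 12831) spans chr2:27886425-28039514 on the plus strand with 66 exons, *Col5a3* (53867) chr9:20770050-20815067 on the minus strand with 67, *Col11a1* (12814) chr3:114030540-114220718 on the plus strand with 67 and *Col2a1* (12824) chr15:97975602-98004695 on the minus strand with 54. *Col3a1* (12825), at chr1:45311538-45349706 on the plus strand with 51 exons, and *Col5a2* (12832), at chr1:45374321-45503282 on the minus strand with 54, are neighbours that face each other end to end, 24614 bases apart with 0 annotated genes between them. These neighbours lay in different sets, with M of −0.86 and −0.44. The encoded chains run from 1372 residues in *Col1a2* to 1838 in *Col5a1*, and their longest unbroken Gly-X-Y run holds 337 to 344 triplets. *Col1a2*, *Col3a1* and *Col5a2* each overlap a predicted gene on the same strand (*Gm43921*, *Gm47302* and *Gm38211*), which the count table does not list.

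Of the 3 fibrillar collagen genes outside the chosen 8, none was counted at A above 0. *Col27a1* had 518 reads with siCtrl and 299 with si*Vgll3*, or 1.06 TPM and 0.661 TPM, with an M of −0.68 [−0.89, −0.48]. *Col24a1* had 63 and 32 reads, or 0.136 TPM and 0.0758 TPM, with an M of −0.85 [−1.51, −0.21]. *Col11a2*, the α2 chain of type XI, had 2 reads with siCtrl and 13 with si*Vgll3* and no TPM value, and 2 reads are too few to give a fold. The longest Gly-X-Y run of *Col24a1* and *Col27a1* is shorter than in the 8 chains, at 216 and 217 triplets, and each holds 1 miR-29 seed match.

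Promoter sequence was taken from RefSeq (GRCm38.p6) for the 5 chains matched there, *Col1a2*, *Col3a1*, *Col5a1*, *Col5a3* and *Col11a1*, as the 250 bases before the start of transcription. Both strands were searched for CCAAT, bound by NF-Y, for TATAAA, for the GC box GGGCGG, bound by Sp1, and for CATTCC, the element bound by TEAD proteins, the partners of VGLL3. Of 32851 promoters of this length, 33.8% held CCAAT, 12.4% TATAAA, 32.7% GGGCGG and 12.6% CATTCC. *Col1a2*, *Col5a3* and *Col11a1* held 1 CCAAT each, and these and *Col5a1* held 2 GC boxes each. *Col3a1* held neither and was the only one of the 5 with CATTCC or TATAAA. *Col1a2* and *Col3a1* are printed because they share none of these motifs, and matches are in capitals.
Col1a2: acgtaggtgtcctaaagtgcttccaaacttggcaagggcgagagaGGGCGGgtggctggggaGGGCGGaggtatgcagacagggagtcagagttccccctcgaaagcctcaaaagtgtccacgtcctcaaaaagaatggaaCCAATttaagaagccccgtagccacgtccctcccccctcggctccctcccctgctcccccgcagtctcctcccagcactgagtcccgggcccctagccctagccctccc
Col3a1: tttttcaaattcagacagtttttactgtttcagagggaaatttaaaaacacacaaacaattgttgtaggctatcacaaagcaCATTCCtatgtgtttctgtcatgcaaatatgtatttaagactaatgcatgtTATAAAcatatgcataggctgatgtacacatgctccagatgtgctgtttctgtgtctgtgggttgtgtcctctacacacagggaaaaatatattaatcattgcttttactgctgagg
They lie at chr6:4505368-4505617 and chr1:45311288-45311537, both on the plus strand. The GENCODE gene of *Col1a2* starts earlier, at chr6:4504814, so the window printed for it lies inside that gene. In *Col1a2* CCAAT begins 109 bases before the RefSeq start. In *Col3a1* CATTCC begins 168 bases and TATAAA 117 bases before it. *Col3a1*, *Col5a1* and *Col11a1* lay in the lower set and *Col1a2* and *Col5a3* in the higher, and no motif was held by all of either set and by none of the other. The sets were drawn from the M values and only 5 promoters were matched. Whether any motif had a part in M was not tested.

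The genes that make, fold, trim and bind these collagens were examined as lists, each described by its genes with A above 0. Of all genes with A above 0, 11.4% were lower and 5.73% higher, with a median M of −0.05. For hydroxylation, folding and export of procollagen, 7 of 22 genes were lower and 0 higher, with a median M of −0.31. The lower genes of this list numbered 6 with CPM, TMM, DESeq2's size factors or centred M. *P4hb*, the β subunit of prolyl 4-hydroxylase, was at 2215 TPM with siCtrl and 1758 TPM with si*Vgll3* (M −0.33), and *Ppib*, a prolyl isomerase, at 962 TPM and 848 TPM (M −0.18). *P4ha3*, a catalytic subunit of prolyl 4-hydroxylase, had the lowest M of the list, −1.01, with 61.2 TPM and 30.4 TPM. *Serpinh1* (HSP47), the chaperone that binds procollagen in the endoplasmic reticulum, had the highest M, 0.43, with 2219 TPM with siCtrl and 2987 TPM with si*Vgll3*. It thus lay on the other side of 0 from all 8 of the chains it serves.

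For cleavage and cross-linking, 6 of 12 genes were lower and 0 higher, with a median M of −0.33. *Pcolce*, which enhances removal of the procollagen C-propeptide, was at 1016 TPM with siCtrl and 680 TPM with si*Vgll3* (M −0.58), whereas its relative *Pcolce2* was at 140 TPM and 187 TPM (M 0.41). The cross-linking enzymes *Lox* and *Loxl1* were at 1252 TPM and 463 TPM with siCtrl and at 1138 TPM and 470 TPM with si*Vgll3*, with M of −0.14 and 0.02. *Tgm2*, a transglutaminase, had the lowest M of the list, −1.10, with 65.8 TPM and 30.6 TPM.

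Proteins that bind the fibril surface or help it assemble formed the list with the lowest median M, −1.01, below that of the fibrillar collagens themselves. Of its 18 genes, 11 were lower and 2 higher. *Fmod* (fibromodulin), a small proteoglycan that binds type I collagen, was at 40.5 TPM with siCtrl and 4.69 TPM with si*Vgll3*, an M of −3.11. The most abundant members moved less: *Bgn* (biglycan) was at 5155 TPM and 4065 TPM (M −0.34), *Fn1* (fibronectin) at 4977 TPM and 5115 TPM (M 0.04) and *Sparc*, a collagen-binding glycoprotein, at 2860 TPM and 2356 TPM (M −0.28). *Tnxb* (tenascin-X) had the highest M, 1.53, at 1.72 TPM and 4.97 TPM.

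Of the collagen receptors, 3 of 6 genes were lower and 0 higher, with a median M of −0.36. With no filter on A, or with at least 10 reads in each library, 5 receptors were lower at a median of −0.50, and with 1 TPM added the median was −0.14. *Itga11*, the α11 integrin subunit that binds fibrillar collagen on fibroblasts, was at 16.4 TPM with siCtrl and 4.50 TPM with si*Vgll3*, an M of −1.86. Its partner *Itgb1* had 1101 TPM and 1004 TPM (M −0.13), and the uptake receptor *Mrc2* 193 TPM and 129 TPM (M −0.58). The discoidin domain receptors *Ddr1* and *Ddr2* had M of 0.00 and 0.11.

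Of the collagen-cleaving proteases and their inhibitors, 6 of 11 genes were lower and 1 higher, with a median M of −0.66. *Mmp16*, a membrane-bound metalloproteinase, had the lowest M, −1.42, at 24.8 TPM with siCtrl and 9.24 TPM with si*Vgll3*. The higher gene was *Timp1*, a metalloproteinase inhibitor, at 1363 TPM and 2167 TPM (M 0.67). *Timp2* and *Timp3* had M of −0.39 and 0.10.

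Factors known to control collagen transcription or translation were 33 genes, of which 0 were lower and 2 higher, with a median M of −0.04. The share of higher genes was close to the 5.73% of all genes. The higher genes were *Cebpb*, at 2.55 TPM with siCtrl and 7.82 TPM with si*Vgll3* (M 1.62), and *Tead4*, at 1.57 TPM and 2.80 TPM (M 0.84). *Ybx1* had an M of 0.20, *Cebpd* of 0.02 and *Creb3l1*, a membrane-bound transcription factor that is cleaved to act on collagen genes, of −0.48, with 161 TPM and 115 TPM. *Larp6*, which binds a stem-loop of collagen mRNAs, had the lowest M of the list, also −0.48, with 2.23 TPM and 1.59 TPM. TGF-β ligands and receptors, the main profibrotic pathway, had 3 of 8 genes lower and 0 higher, with a median M of −0.26 and all 8 below 0. *Tgfb3* was at 153 TPM and 92.4 TPM (M −0.73), *Acvrl1*, a type I receptor, at 125 TPM and 86.8 TPM (M −0.53 [−0.55, −0.50]), and *Eng* (endoglin) at 272 TPM and 266 TPM (M −0.04). The third lower gene, *Tgfb2*, had an M of −0.58. With CPM, TMM, DESeq2's size factors or centred M, 2 of the 8 were lower, *Acvrl1* being at −0.48 with CPM. *Eng* was at 0.02 with CPM, so not all 8 lay below 0 with that scaling.

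**Figure D5:**
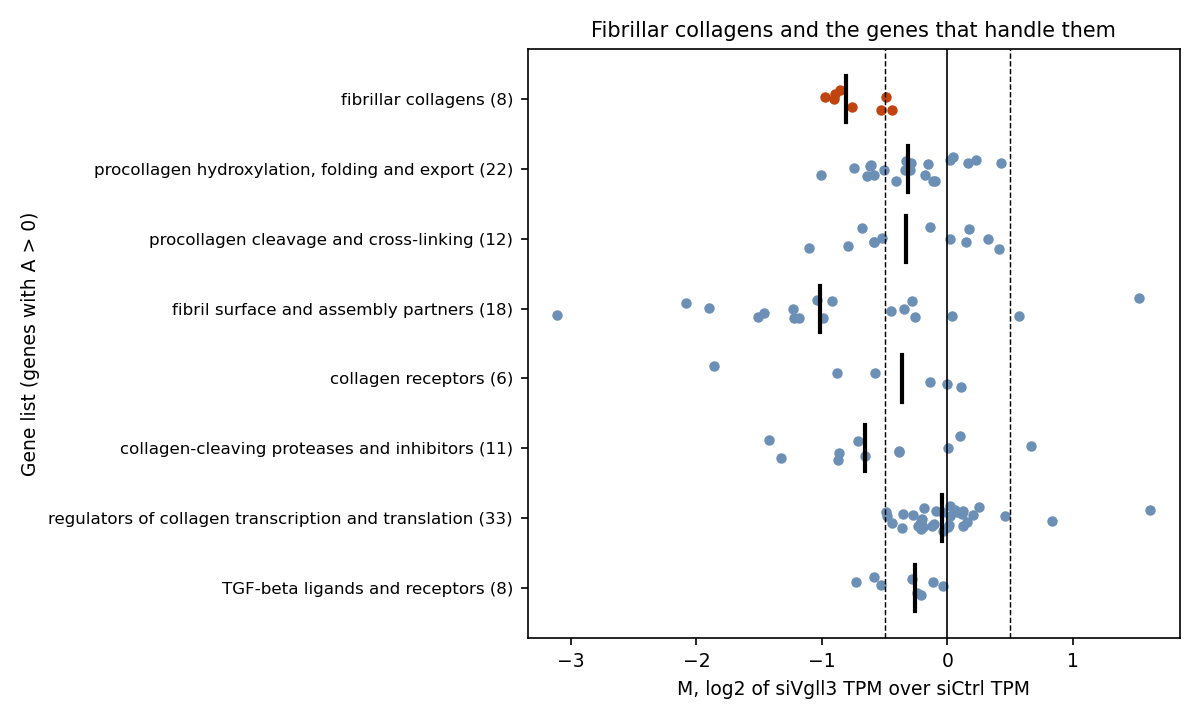
M of each gene with A above 0 in the fibrillar collagens (orange) and in 7 lists of genes that act on them (blue), with the number of genes in brackets, black bars at the medians and dashed lines at −0.5 and 0.5. The regulators sit around 0 with a median of −0.04, and the fibril surface list reaches from −3.11 to 1.53.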

How the data were processed

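The authors used the TruSeq Stranded mRNA LT kit and a NovaSeq instrument. FastQC and Trimmomatic served for read quality and trimming, HISAT2 for mapping to mm10 and StringTie for assembly of annotated genes. Versions of these tools, the annotation and the strand setting of the counting are not given in the sources used here. The authors deposited raw read counts per gene, without normalization, and TPM per gene, and all per-sample columns were used.

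M was computed from TPM with nothing added. The thresholds on M and A are those of the study, and higher genes were called by the mirrored rule. A was log2 of the mean TPM, as the study labels that axis, which gave 1341 lower genes, and the mean log2 TPM in its place gave 1313. Intervals were 95% Clopper-Pearson intervals, conditional on the sum of both counts. Their code was run on simulated counts that varied by counting error alone. That run holds no variation between cultures or library preparations, so it cannot show how well the intervals cover such variation. Python 3.11.15 with pandas 2.3.3 and scipy 1.17.1 was used, and R 4.3.3 with edgeR 4.0.16 and DESeq2 1.42.0 gave scaling factors only (TMM and size factors). No test of the conditions was made. Seed matches, gene positions and Gly-X-Y runs were taken from GENCODE vM21, which is built on GRCm38 (mm10). Identity between chains was not analysed here, and 1 of the leukocyte markers used in the sums is not reported by name.

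The members and gene lists were chosen with earlier results of these data known. Beside the members, the other fibrillar collagens and *Vgll3*, the genes to name were, in each list, the 3 of largest mean TPM and those of the lowest and highest M among genes with A above 0 and 50 or more reads in either library. The 5 genes nearest to the most abundant member were named too. *Tead4*, *Tgfb2*, the lower genes with A above 10 and the marker genes were named outside this rule, after their values were seen. Alternatives were CPM, TMM and DESeq2 scaling, 0.1 or 1 TPM added, centred M, other filters on A or reads, A computed as the mean log2 TPM, a threshold of 1 and whole intervals past the threshold.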

Additional observations from a re-analysis of the deposited data

How the results depend on the processing

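All 8 fibrillar collagens had M below 0 under every alternative tried. CPM, TMM, DESeq2's size factors and M centred on the all-gene median gave 5 lower chains in place of 6, because *Col1a2* then had an M of −0.48, −0.49, −0.49 and −0.48. Of all genes, 10.0%, 10.2%, 10.2% and 9.95% were lower in these settings, in place of 11.4%. The same settings moved the M of the summed fibrillar collagens from −0.73 to −0.68, −0.69, −0.69 and −0.68. A threshold of 1 on M left 0 lower chains, beside 384 lower genes (3.27%) and 207 higher genes in all. The other settings gave 6 lower chains, and the median M of the chains lay between −0.81 and −0.76 throughout. With no filter on A, 2103 genes (14.9%) were lower and 1428 higher, and with A above 2, 928 (9.34%) and 393. The median M of the regulators of collagen transcription and translation changed sign when M was centred, from −0.04 to 0.0051. Over all settings the median M lay between −0.50 and −0.14 for the receptors, between −0.52 and −0.22 for cleavage and cross-linking, and between −0.66 and −0.41 for the proteases and inhibitors. *Col5a3*, with 2097 reads in si*Vgll3*, is the chain whose side of the threshold the depth did not settle. No paired analysis was possible because siCtrl and si*Vgll3* were sequenced once each, and leaving out a replicate would leave no library.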
